A study of Sus scrofa with 15 samples.

Results

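The transcripts described here were 9 genes of the neutrophil's equipment, taken from the 31908 genes of a count table of piglet liver. They were 2 receptors (CSF3R and TREM1), 2 granule proteins (LTF and MMP9), the chromatin enzyme PADI4, and 4 subunits of the phagocyte NADPH oxidase (NCF1, NCF4, CYBB and CYBA). They were chosen by name, with earlier results of these data known, and a row was found for 9 of 9. Pig Ensembl symbols gave 8 of them, and CYBB, listed under its older name GP91-PHOX, was matched through the RefSeq synonym.

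The study used male growing piglets (Duroc x Large White x Landrace) that received 80 ug/kg lipopolysaccharide (LPS), a component of the bacterial outer membrane, into the peritoneum. Control (CON) piglets received an equal dose of sterile saline, and livers were taken 4 h after the injection. The study had 6 piglets per group, and the values here come from the 3 CON and 3 LPS libraries of polyadenylated liver RNA that served as the input of an m6A immunoprecipitation. No transgene or deletion was involved, and age was not stated beyond the growing stage. The immunoprecipitated libraries were not analysed here. Total counts were 5927348 to 10351491 for CON and 4348478 to 19967417 for LPS libraries, so LPS replicate 3 was the deepest library and LPS replicate 1 the shallowest. Calls depended most on LPS replicate 2, so calls of the 9 genes are given with and without it. The labels do not say that each library came from a separate piglet, so the p-values measure the spread between these samples. The summed level of 12 hepatocyte markers was 59000 to 118000 CPM (counts scaled to a common library size with TMM factors) across the LPS libraries and 69300 to 90300 CPM across the CON libraries. As a sum, these transcripts of liver were thus abundant in every library, though SERPINA1, a marker of this list, was at only 1.23 to 7.2 CPM. The gene positions below are those of the count table and follow Sscrofa11.1, as judged from 13674 of 13830 genes of shared symbol whose spans overlap the RefSeq genes of that assembly.

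Neutrophils are short-lived phagocytes made in bone marrow under the control of granulocyte colony-stimulating factor, and they enter the liver sinusoids soon after bacterial products reach the blood. They kill microbes with proteins stored in granules, with reactive oxygen made by the NADPH oxidase, and with nets of released chromatin. The oxidase is a membrane pair of CYBB and CYBA that becomes active when cytosolic proteins, NCF1 and NCF4 among them, join it. Macrophages, including the resident Kupffer cells of the liver, carry the same oxidase, and CYBA is made in many other cell types.

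The 9 genes did not all differ in the same direction. The mRNA of the receptor CSF3R averaged 82.0 CPM in the LPS group and 10.9 CPM in the CON group, the largest difference in CPM of the 9. TREM1, LTF, MMP9 and PADI4 were scarce and had higher means in the LPS group. Of the oxidase genes, CYBB and NCF4 had lower means in the LPS group, NCF1 had a higher mean, and CYBA varied more within each group than between the groups. In whole liver, fewer cells of a type and less RNA per cell cannot be told apart.

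A gene was called where the edgeR quasi-likelihood test gave a fold change over 1.5 with an adjusted p under 0.05. By this rule 0 of the 9 genes were called higher, beside 0.0548% of all 12774 tested genes, and 0 were called lower, beside 0% of them. At an unadjusted edgeR p below 0.05, 5 of the 9 were higher and 1 was lower, where 6.18% of tested genes were higher and 6.33% lower. In 4 of the 9 every LPS library lay above every CON library, which held for 6.52% of tested genes. In 1, CYBB, every LPS library lay below every CON library, which held for 9.8%. DESeq2 called 2 of the 9 higher (CSF3R and LTF) and 0 lower, with 1.91% of genes called higher, and limma-voom called 0 in either direction.

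The median log2 fold change of the 9 was 1.83, and that of all tested genes was 0.01. The counts above and this median carry with them the choice of the 9 with earlier results known, and the filter on low counts. A library counted toward the filter at 1.23 CPM or more, and TREM1 and LTF reached that level in 0 of 3 CON libraries and in 3 of 3 LPS libraries, so they were tested through the group in which they were high. Over the 5 genes that reached it in every CON library (CSF3R, NCF1, NCF4, CYBB and CYBA) the median was 0.32. Of these 5, 1 was higher (CSF3R) and 1 lower (CYBB) at an unadjusted edgeR p below 0.05, and 2 (CSF3R and NCF1) had every LPS library above every CON library.

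**Figure D1:**
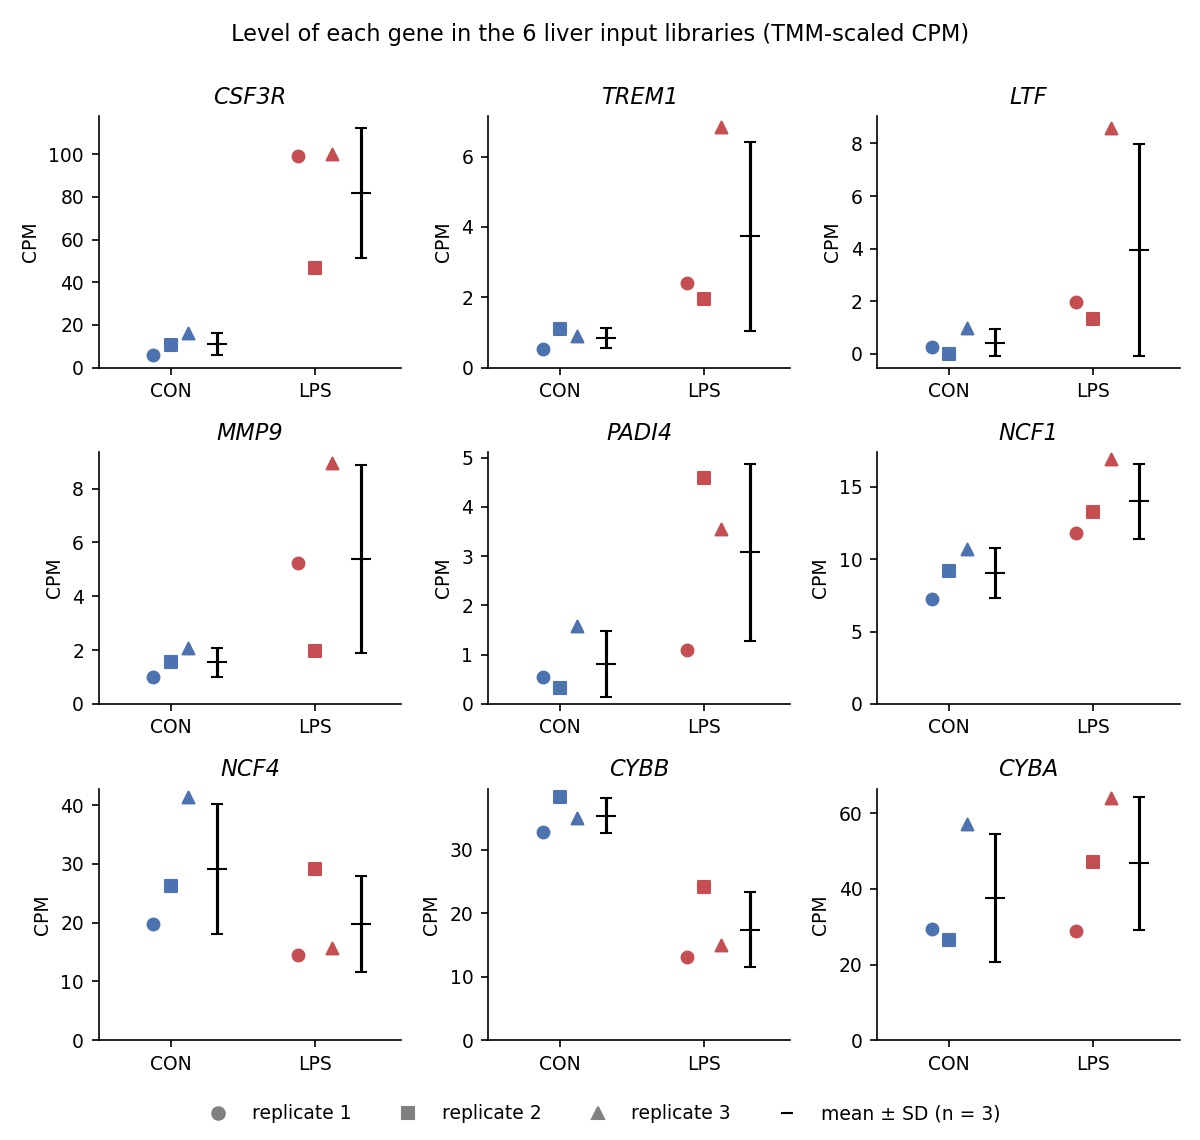
Level of each of the 9 genes in CPM (vertical axis, a separate scale for each gene) in the 3 CON (blue) and 3 LPS (red) libraries, with the marker shape giving the replicate and the bar the mean ± SD. CSF3R, TREM1, LTF and NCF1 have all LPS points above all CON points, CYBB has all of them below, and the groups overlap in the other 4 genes.

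CSF3R (chromosome 6, 92550159 to 92565477, minus strand) encodes the receptor for granulocyte colony-stimulating factor, which neutrophils and their precursors need for survival and output. Its level was 5.9, 10.6 and 16.2 CPM in CON replicates 1 to 3, and 99, 46.8 and 100 CPM in LPS replicates 1 to 3. All LPS libraries stood above all CON libraries, and LPS replicate 2 was the lowest of them. The log2 fold change was 2.91 (SE 0.47, 95% interval 1.87 to 3.95), with an unadjusted p of 0.000105 and an adjusted p of 0.0668 by edgeR. The counts behind it summed to 298 over the CON libraries and 2210 over the LPS libraries, so counting error was small beside the spread between libraries.

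TREM1 (chromosome 7, 36510253 to 36531796, minus strand) encodes a receptor of neutrophils and monocytes that amplifies the response to bacterial products. Its level was 0.536, 1.09 and 0.89 CPM in the CON libraries, and 2.4, 1.96 and 6.83 CPM in the LPS libraries. The groups did not overlap, and LPS replicate 3 was the highest library by a wide margin. The fitted log2 fold change was 2.21 (SE 0.63), with an adjusted p of 0.221 by edgeR. The CON libraries held 6, 7 and 9 counts of TREM1, and the exact Poisson 95% interval of CON replicate 2 (0.44 to 2.25 CPM) overlapped that of LPS replicate 2 (1.01 to 3.43 CPM). Such intervals cover counting error only.

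LTF (chromosome 13, 29413886 to 29445737, minus strand) encodes lactoferrin, the iron-binding protein of the secondary granules. It had 3, 0 and 10 counts in the CON libraries and 9, 8 and 126 counts in the LPS libraries. In levels these were 0.268, 0 and 0.989 CPM against 1.96, 1.31 and 8.6 CPM. The groups did not overlap, but LPS replicate 3 carried most of the LPS counts, and a count of 0 in CON replicate 2 still allows a level of 0.469 CPM (3 counts). The log2 difference between the groups was 3.16 (SE 0.98), the largest of the 9 on this scale and the one with the largest error, and its adjusted p was 0.247 by edgeR.

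MMP9 (chromosome 17, 48175056 to 48188264, plus strand) encodes gelatinase B, a protease of the tertiary granules. Its level was 0.983, 1.56 and 2.08 CPM in the CON libraries, and 5.23, 1.96 and 8.94 CPM in the LPS libraries. LPS replicate 2 fell inside the CON range, so the groups overlapped. The log2 fold change was 1.83 (SE 0.60), with an adjusted p of 0.268 by edgeR.

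PADI4 (chromosome 6, 75935903 to 75966169, plus strand) encodes the enzyme that turns arginine of histones into citrulline, a step in the release of chromatin nets. Its level was 0.536, 0.312 and 1.58 CPM in the CON libraries, and 1.09, 4.58 and 3.55 CPM in the LPS libraries. Here LPS replicate 1 fell inside the CON range, while LPS replicate 2, which was low for CSF3R and MMP9, was the highest library. The fitted log2 fold change was 1.89 (SE 0.72), with an adjusted p of 0.333 by edgeR. LPS replicate 1 held 5 counts of PADI4 and CON replicate 2 held 2.

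CYBB (chromosome X, 33642015 to 33680580, plus strand) encodes gp91phox, the subunit of the oxidase that carries electrons across the membrane. Its level was 32.8, 38.3 and 35 CPM in the CON libraries, and 13.1, 24.2 and 15 CPM in the LPS libraries. The CON libraries were close together, at 35.4 ± 2.76 CPM (SD, n = 3), and all LPS libraries were below them, at 17.4 ± 5.95 CPM (SD, n = 3). The log2 difference between the groups was -1.02 (SE 0.33, 95% interval -1.76 to -0.28), with an unadjusted p of 0.0119 and an adjusted p of 0.264 by edgeR. LPS replicate 2 was the LPS library nearest to the CON group for CYBB as it was for CSF3R, from the other side.

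CYBA (chromosome 6, 1015154 to 1021418, plus strand) encodes p22phox, the partner that CYBB needs to be stable in the membrane. Its level was 29.3, 26.6 and 57.1 CPM in the CON libraries, and 29, 47.1 and 64.2 CPM in the LPS libraries. The groups overlapped, with CON replicate 3 and LPS replicate 3 the highest of their groups. The log2 fold change was 0.32 (95% interval -0.59 to 1.22), with an adjusted p of 0.786 by edgeR, so a fold change of 2 in the upward direction lies inside the interval and the same size downward does not. An unnamed gene on the other strand shared 408 exon bases with CYBA and had 8 to 26 counts per library. The strand setting of the counting was not given in the sources used here.

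NCF1 (chromosome 3, 11820285 to 11839426, plus strand) encodes p47phox, the cytosolic organiser that is phosphorylated when a phagocyte is activated. Its level was 7.24, 9.22 and 10.7 CPM in the CON libraries, and 11.8, 13.3 and 16.9 CPM in the LPS libraries. The groups did not overlap, though the lowest LPS library was close to the highest CON library. The fitted log2 fold change was 0.63 (SE 0.34, 95% interval -0.12 to 1.39), with an adjusted p of 0.48 by edgeR.

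NCF4 (chromosome 5, 10874953 to 10994015, minus strand) encodes p40phox, the cytosolic subunit that binds a phosphoinositide of the phagosome membrane. Its level was 19.8, 26.2 and 41.3 CPM in the CON libraries, and 14.4, 29.1 and 15.7 CPM in the LPS libraries. LPS replicate 2 lay inside the CON range and the other LPS libraries lay below it. The log2 difference between the groups was -0.56 (SE 0.40, 95% interval -1.46 to 0.34), with an adjusted p of 0.608 by edgeR. The span of NCF4 contains PVALB on the other strand, which shared 0 exon bases with it and had at most 2 counts in any library.

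For a single gene, the smallest p of an exact two-sided permutation test of 3 libraries against 3 is 0.1. The 5 genes whose groups did not overlap reached that value, and the other 4 gave 0.2 for MMP9 and PADI4, 0.3 for NCF4 and 0.6 for CYBA.

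Ratios of 2 genes within a library do not depend on how libraries are scaled. The pairs were chosen after the values were seen, so the ratios are a description without a test. The count of CSF3R divided by that of CYBB was 0.18, 0.278 and 0.463 in the CON libraries, and 7.57, 1.93 and 6.68 in the LPS libraries. In liver of the CON group CYBB counts exceeded CSF3R counts in every library, and in the LPS group the order was the opposite in every library.

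Within the oxidase, the ratio of CYBB to CYBA was 1.12, 1.44 and 0.614 in the CON libraries, and 0.451, 0.514 and 0.234 in the LPS libraries. The ratio of NCF4 to NCF1 was 2.73, 2.85 and 3.87 in the CON libraries, and 1.22, 2.2 and 0.931 in the LPS libraries. Both ratios were lower in every LPS library than in every CON library.

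**Figure D2:**
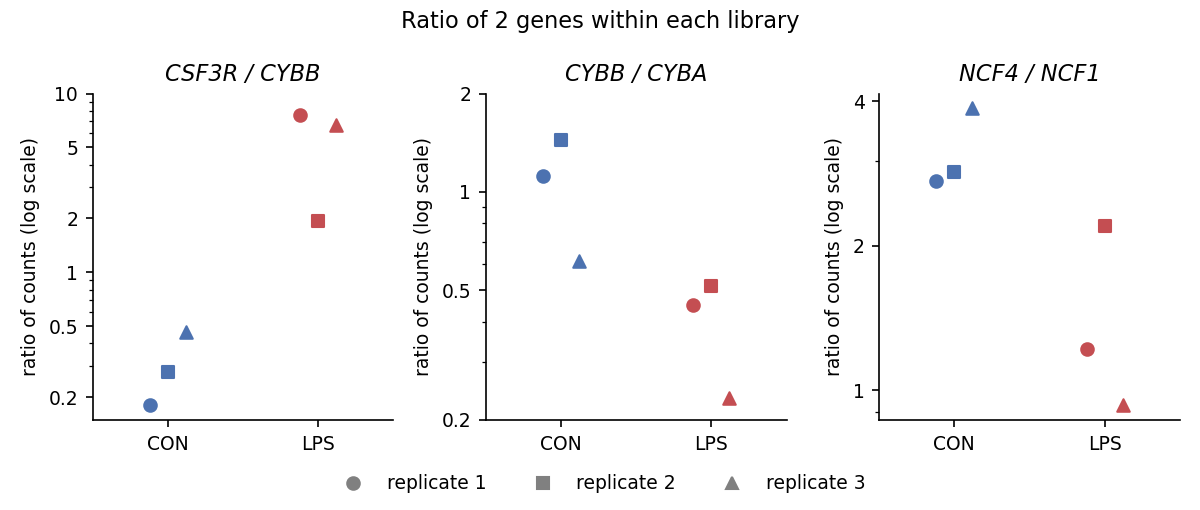
Ratio of the counts of 2 genes within each library (vertical axis, log scale) for CSF3R to CYBB, CYBB to CYBA and NCF4 to NCF1, with CON libraries in blue, LPS libraries in red and the marker shape giving the replicate. The first ratio is 0.18 to 0.463 in CON and 1.93 to 7.57 in LPS, and the other ratios have all LPS points below all CON points.

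Levels of different genes were compared per kilobase of the gene model (RPKM, CPM divided by the length given in the table). In the CON group CYBA stood highest at 43.5 ± 19.5 RPKM (SD, n = 3), above every other gene in each library. CYBB (5.57 ± 0.434), NCF4 (4.58 ± 1.74), CSF3R (3.51 ± 1.66) and NCF1 (3.26 ± 0.622) followed in RPKM, and the ranges of neighbours in this order overlapped. TREM1, PADI4, MMP9 and LTF made up the lowest tier, from 0.451 down to 0.1 RPKM, again with overlapping neighbours and with a gap to NCF1 in every library.

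In the LPS group CYBA was again first at 54.0 ± 20.3 RPKM (SD, n = 3), and CSF3R was second at 26.4 ± 9.81 RPKM. The range of CSF3R (15 to 32.3 RPKM) overlapped neither that of CYBA above it nor that of NCF1 below it (4.24 to 6.07 RPKM). NCF1 (5.03 ± 0.943), NCF4 (3.11 ± 1.28) and CYBB (2.75 ± 0.937) came next in RPKM, so CYBB stood at rank 2 of the 9 in the CON group and at rank 5 in the LPS group. TREM1 averaged 2.0 RPKM, PADI4 1.42, MMP9 1.01 and LTF 0.946, and none of these neighbours was separated by its range.

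As a share of the summed RPKM of the 4 oxidase genes, CYBB made up 11.5%, 13.7% and 6.74% in the CON libraries and 4.9%, 5.64% and 2.78% in the LPS libraries. NCF4 made up 8.09% ± 1.21 of it for CON and 5.03% ± 1.96 for LPS (SD, n = 3). NCF1 made up 6.02% ± 1.42 and 8.1% ± 1.72, and CYBA 75.2% ± 5.57 and 82.4% ± 4.12. Only CYBB and NCF4 of the 4 had every LPS share below every CON share.

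The set of called genes among the 9 changed when 1 LPS library was left out. Without LPS replicate 2, edgeR called 4 genes higher (CSF3R, TREM1, LTF and MMP9) and 1 lower (CYBB), in a fit that called 3.76% of all genes higher and 3.45% lower. In that edgeR fit CSF3R had a log2 fold change of 3.19 (adjusted p = 0.00248) and CYBB one of -1.32 (adjusted p = 0.0417). Without LPS replicate 3, the deepest library, edgeR called CSF3R alone (log2 fold change 2.75, adjusted p = 0.0357), where 0.31% of genes were called higher, and LTF and PADI4 no longer passed the filter. TREM1 then had a log2 fold change of 1.40 and MMP9 one of 1.21, from 2.21 and 1.83 with all libraries. Without LPS replicate 1 or any 1 of the CON libraries edgeR called 0 of the 9, and these fits called at most 1 gene of the whole table. With no filter on low counts the same test called 4 of the 9 higher (CSF3R, TREM1, LTF and MMP9), in a fit that called 2.28% of genes higher. The fitted log2 fold change of each gene kept its sign in every setting in which it was tested.

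**Figure D3:**
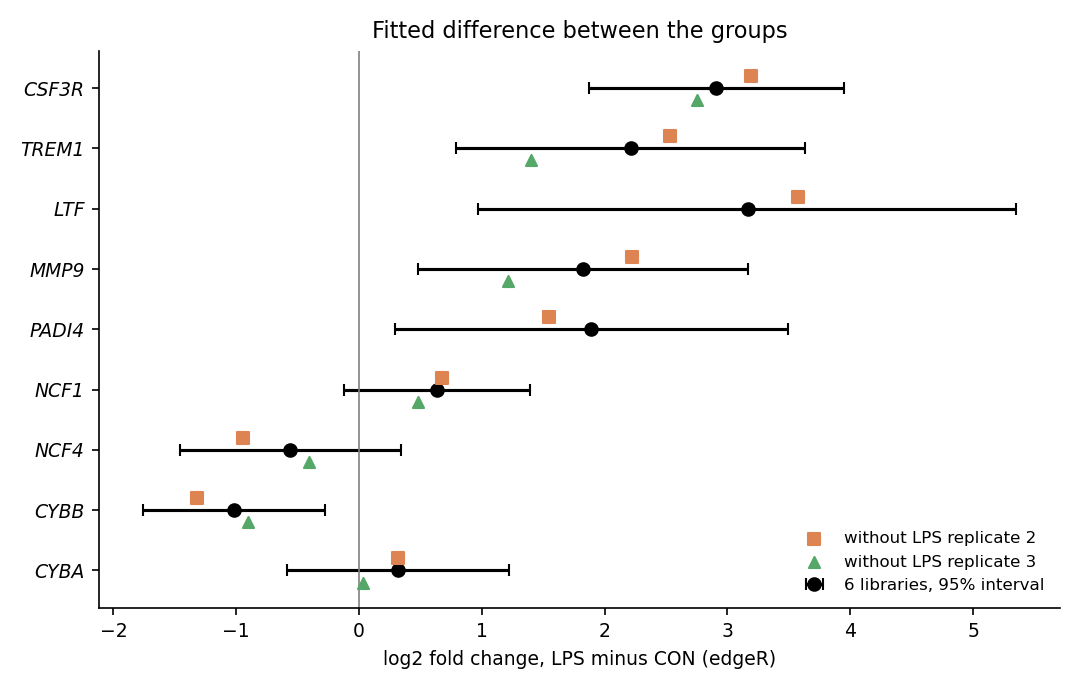
Log2 fold change of each gene, LPS minus CON, from edgeR (horizontal axis), as black points with 95% intervals over all 6 libraries, orange squares without LPS replicate 2 and green triangles without LPS replicate 3. The squares lie farther from 0 than the black points for CSF3R, TREM1, LTF, MMP9, NCF1, NCF4, CYBB and, by a small margin, CYBA, and nearer to 0 for PADI4, and LTF and PADI4 have no triangle because they were not tested without LPS replicate 3.

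Other granule proteins of neutrophils, with further proteins of these cells such as S100A8, LTA4H and ALOX5, were taken as a list of 29 genes. Of these, 25 were paired with a row and 15 were tested. Higher means in the LPS group were found for 14 and a lower mean for 1, and the median log2 fold change was 0.84. At an unadjusted edgeR p below 0.05, 8 were higher and 0 lower, beside 6.18% and 6.33% of all tested genes. EdgeR called 2 of the 15 higher (S100A8 and LCN2). DESeq2 tested 20, with 17 higher and 3 lower, and called 7 of the 20 higher. EdgeR without LPS replicate 2 tested 18, with 15 higher and 3 lower, and called 8 of the 18 higher. The shares of all genes called in these fits are given above. With limma-voom, without LPS replicate 1 or without any 1 of the CON libraries, 0 were called. ARG1, with a mean of 467 CPM in CON and 1570 CPM in LPS libraries, was among the 8 past the unadjusted p. It was also among the calls of DESeq2 and of edgeR without LPS replicate 2. Which cells the ARG1 RNA came from was not tested, so its place in this list does not assign that RNA to neutrophils. S100A8, a subunit of the calcium-binding protein calprotectin, was 0.357, 0.312 and 0.396 CPM in the CON libraries and 14.2, 5.07 and 25.7 CPM in the LPS libraries (log2 fold change 5.34, adjusted p = 0.0371 by edgeR). LCN2, the siderophore-binding lipocalin of secondary granules that hepatocytes also make, was 2.95, 5 and 4.94 CPM against 114, 29.4 and 129 CPM (log2 fold change 4.41, adjusted p = 0.0379 by edgeR). S100A8, like RETN, was under the 1.23 CPM of the filter in every CON library and passed it through the LPS libraries. For both genes the groups did not overlap and LPS replicate 2 was the lowest LPS library, the same order as for CSF3R.

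RETN, which encodes resistin, had 3, 0 and 1 counts in the CON libraries and 88, 15 and 1003 counts in the LPS libraries, with an adjusted p of 0.0933 by edgeR. MMP8, the collagenase of secondary granules, was singled out after its values were seen. It had 0 counts in all 3 CON libraries and 18, 5 and 271 counts in the LPS libraries, at least 107-fold higher over the group when 3 counts over the CON group are taken as the limit. LPS replicate 3 held most of these counts, and without it the same limit was 19.9-fold. MMP8 did not pass the filter in the fit of all libraries, and it was called higher by DESeq2 and by edgeR without LPS replicate 2. CD177, a neutrophil surface protein named after its values were seen, had 3, 3 and 9 counts in the CON libraries and 1, 0 and 2 in the LPS libraries, and was not tested. The primary granule enzymes MPO and ELANE, also named after their values were seen, had few counts in both groups, as TREM1, LTF and PADI4 had in the CON group. MPO had 13, 5 and 10 counts in the CON libraries and 5, 3 and 4 in the LPS libraries, and was not tested. ELANE had 15, 7 and 19 against 8, 3 and 10. It was the tested gene of the list with a lower mean in the LPS group (log2 fold change -0.66, adjusted p = 0.706 by edgeR).

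Of 24 other receptors, adhesion and signalling molecules of neutrophils, 14 were paired with a row and 13 were tested. CXCR1, CXCR2, FPR1, FPR2, C5AR1, LTB4R and FCGR3A were among those with no paired row, so the values below do not cover them. EdgeR and DESeq2 called 0 of the 13, and 1 was higher and 1 lower at an unadjusted edgeR p below 0.05. Over all tested genes 6.18% were higher and 6.33% lower at that p. Means were higher for 8 and lower for 5 with LPS, and the median log2 fold change was 0.20. With total counts in place of TMM factors, 6 were higher and 7 lower and the median was -0.06, in a fit whose median over all genes was -0.12. Without LPS replicate 3, 5 were higher and 8 lower, with a median of -0.36. CSF2RB, the shared chain of the receptors for GM-CSF, IL-3 and IL-5, was 31.3 ± 6.23 CPM for CON and 71.0 ± 43.5 CPM for LPS (SD, n = 3), with an adjusted p of 0.314 by edgeR. ITGAL, the integrin chain of LFA-1 on most leukocytes, was 123, 114 and 130 CPM in the CON libraries and 38.2, 78 and 54 CPM in the LPS libraries (log2 fold change -1.11, adjusted p = 0.244 by edgeR). ITGAL was called lower without LPS replicate 2, as CYBB was, in a fit that called 3.45% of all genes lower.

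All 12 partners and regulators of the oxidase were tested. EdgeR and DESeq2 called 0 of them, and 0 were higher and 3 lower at an unadjusted edgeR p below 0.05. Over all tested genes 6.18% were higher and 6.33% lower at that p. Means were higher for 4 and lower for 8 with LPS, and the median log2 fold change was -0.05. The split was 6 and 6 with RLE factors or without CON replicate 3, and 2 and 10 with total counts. Among the 3 were the proton channel HVCN1 (5.21 to 1.99 CPM, log2 fold change -1.40) and the kinase PRKCB (24.7 to 11.5 CPM, -1.10), with CON means given first. Their adjusted edgeR p-values were 0.268 and 0.291, and all LPS libraries were below all CON libraries in both, as for CYBB. Of 10 other NADPH oxidase genes 3 were tested, all with higher means in the LPS group, with 0 called by edgeR and 0 at an unadjusted p below 0.05.

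Of 19 genes of granulocyte production and recruitment, 18 were paired with a row and 13 tested. Means were higher for 11 and lower for 2 with LPS, and the median log2 fold change was 1.36. EdgeR called 0 of them, and 5 were higher at an unadjusted edgeR p below 0.05, beside 6.18% of all tested genes. DESeq2 called 1 (JUNB) higher, beside 1.91% of all genes. Without LPS replicate 2 edgeR called 5 higher (CEBPB, CEBPD, CSF3, CXCL2 and JUNB), in a fit that called 3.76% of all genes higher. Without LPS replicate 3, 11 were tested, 7 were higher and 4 lower, and the median was 0.60. For none of the 13 did the groups separate. Over all tested genes 6.52% had every LPS library above every CON library and 9.8% had every LPS library below. CXCL2, a chemokine for neutrophils, was 3.4, 2.19 and 4.94 CPM in the CON libraries and 56, 1.47 and 136 CPM in the LPS libraries, so LPS replicate 2 was below every CON library. The transcription factors JUNB and CEBPB also had LPS replicates 1 and 3 above all CON libraries, and LPS replicate 2 below 3 and 2 of the CON libraries. CSF3R thus lay above the CON range in a library in which CXCL2, JUNB and CEBPB did not.

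Markers of other cells that carry some of these transcripts were read beside them. Of 15 markers of Kupffer cells and macrophages, 12 were paired with a row and tested, and all 12 had lower means with LPS. Their median log2 fold change was -0.51. EdgeR called 0 of them, and 4 were lower at an unadjusted edgeR p below 0.05, beside 6.33% of all tested genes. DESeq2 called 0 of the 12 and edgeR without LPS replicate 2 called 2 lower (MRC1 and MSR1), in a fit that called 3.45% of all genes lower. Without CON replicate 3, 4 of the 12 had higher and 8 lower fitted means with LPS. Their summed level was 2030 to 3270 CPM in the CON libraries and 1380 to 2330 CPM in the LPS libraries, and none of the 12 was at 0 in all libraries. MRC1, the mannose receptor, was 43.8 ± 5.35 CPM for CON and 18.5 ± 9.68 CPM for LPS (SD, n = 3), TIMD4 was 45.6 ± 8.51 and 21.6 ± 7.82 CPM, and VSIG4 was 30.3 ± 5.41 and 15.9 ± 4.48 CPM. C1QB, with the highest mean of the list over all 6 libraries, had overlapping groups (756 ± 299 and 631 ± 205 CPM). These differences had the same direction as CYBB, NCF4 and HVCN1, and their part in those results was not tested. By immunostaining the paper reported more macrophages in livers of the LPS group, and RNA levels of whole liver do not count cells. Its RT-qPCR of liver gave lower mRNA of CD206, another name of MRC1, with LPS, and higher mRNA of iNOS, CD86 and IL-12. ADGRE1, the gene of the stained antigen, was among the markers with no paired row.

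The leukocyte marker PTPRC was 130, 94.8 and 100 CPM in the CON libraries and 47.8, 105 and 96.7 CPM in the LPS libraries, so only LPS replicate 1 was apart. Of 6 tested markers of monocytes and dendritic cells, 4 were higher and 2 lower (3 and 3 without LPS replicate 1 or 2 or CON replicate 1 or 2). Their sum was 578 to 910 CPM in the CON libraries and 860 to 2420 CPM in the LPS libraries. Most of that sum was CD14, at 518, 818 and 821 CPM against 1350, 805 and 2330 CPM (log2 fold change 1.06, adjusted p = 0.359 by edgeR). The log2 fold changes of the other tested markers of this list ran from -0.81 (FLT3) to 0.56 (VCAN). Which cells the CD14 RNA came from was not tested. Monocytes carry TREM1 and CSF3R transcripts too, and the part of these markers in those results was not tested.

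Of 12 tested markers of T and NK cells, 3 were higher and 9 lower (median log2 fold change -0.23, sums of 167 to 251 CPM in the CON libraries and 111 to 305 CPM in the LPS libraries). Without LPS replicate 1, 7 of 13 were higher and 6 lower. GNLY had the highest mean over all 6 libraries, and CD4 was the member with an unadjusted p below 0.05 (mean of 14.1 CPM in CON and 5.74 CPM in LPS, adjusted p = 0.245 by edgeR). Of all tested genes 6.33% were lower at that unadjusted p. CD4 was called lower without LPS replicate 2, in a fit that called 3.45% of all genes lower. Of 7 tested markers of B and plasma cells, 1 was higher and 6 lower (28.1 to 116 CPM against 21.8 to 45.2 CPM), with the highest mean over all libraries for JCHAIN. Without CON replicate 3, 3 were higher and 3 lower. Of 3 tested markers of eosinophils, basophils and mast cells, 1 was higher and 2 lower (13.0 to 16.5 CPM against 9.16 to 20.5 CPM), with the highest mean over all libraries for CCR3.

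Blood in the tissue was followed through 4 tested markers of red blood cells, and all 4 had higher means in the LPS group. Their sum was 79.3 to 105 CPM in the CON libraries and 102 to 375 CPM in the LPS libraries, and no platelet marker of the list was tested by edgeR. HBB, a haemoglobin chain, was 52.5, 57.3 and 60 CPM in the CON libraries and 192, 72.6 and 246 CPM in the LPS libraries (log2 fold change 1.59, adjusted p = 0.218 by edgeR), and HBM was 7.63 and 28.3 CPM on average and AHSP 2.43 and 5.97 CPM. DESeq2, and edgeR without LPS replicate 2, called HBB and HBM higher, in fits that called 1.91% and 3.76% of all genes higher. The order of the LPS libraries for HBB, with replicate 2 lowest, was that of CSF3R and LCN2. The part of blood content in the values of the 9 genes was not tested.

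In the remaining lists 2 of 8 endothelial markers, 5 of 12 hepatocyte markers and 6 of 11 markers of cholangiocytes and stellate cells were higher, and edgeR called 0 of them in either direction. With each library left out in turn, these counts ran from 1 to 4, 3 to 6 and 5 to 7. The endothelial count was 4 without CON replicate 3, and the last count was 5 without LPS replicate 2 or CON replicate 3. At an unadjusted edgeR p below 0.05 these lists had 1, 1 and 3 genes higher and 2, 1 and 0 genes lower. Over all tested genes 6.18% were higher and 6.33% lower at that p. DESeq2 called FGB and KRT7 higher, in a fit that called 1.91% of all genes higher. EdgeR without LPS replicate 2 called FGB and SPP1 higher and the endothelial receptors KDR and TEK lower. That edgeR fit called 3.76% of all genes higher and 3.45% lower. LYVE1 (12.4 to 27.6 CPM, CON mean first) was the endothelial marker that was higher, ASGR1 (299 to 146 CPM) the hepatocyte marker that was lower, and EPCAM (1.39 to 3.85 CPM) was among the cholangiocyte markers that were higher at that unadjusted p. STAB1, ALB and COL1A1, the marker of each list with the highest mean over all 6 libraries, all had lower means in the LPS group. For ALB all LPS libraries lay below all CON libraries, and for STAB1 and COL1A1 the groups overlapped.

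Seen library by library, the median deviation of the 9 genes from their CON mean on the log2 scale was -0.30, 0.04 and 0.57 in CON replicates 1 to 3, and 0.54, 0.56 and 2.06 in LPS replicates 1 to 3. LPS replicates 1 and 2 each had 5 of the 9 genes above every CON library, and LPS replicate 3 had 7. CON replicate 3 was the highest CON library for 7 of the 9 genes. LPS replicate 3 was also the deepest library, and the part of depth in these values was not tested.

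**Figure D4:**
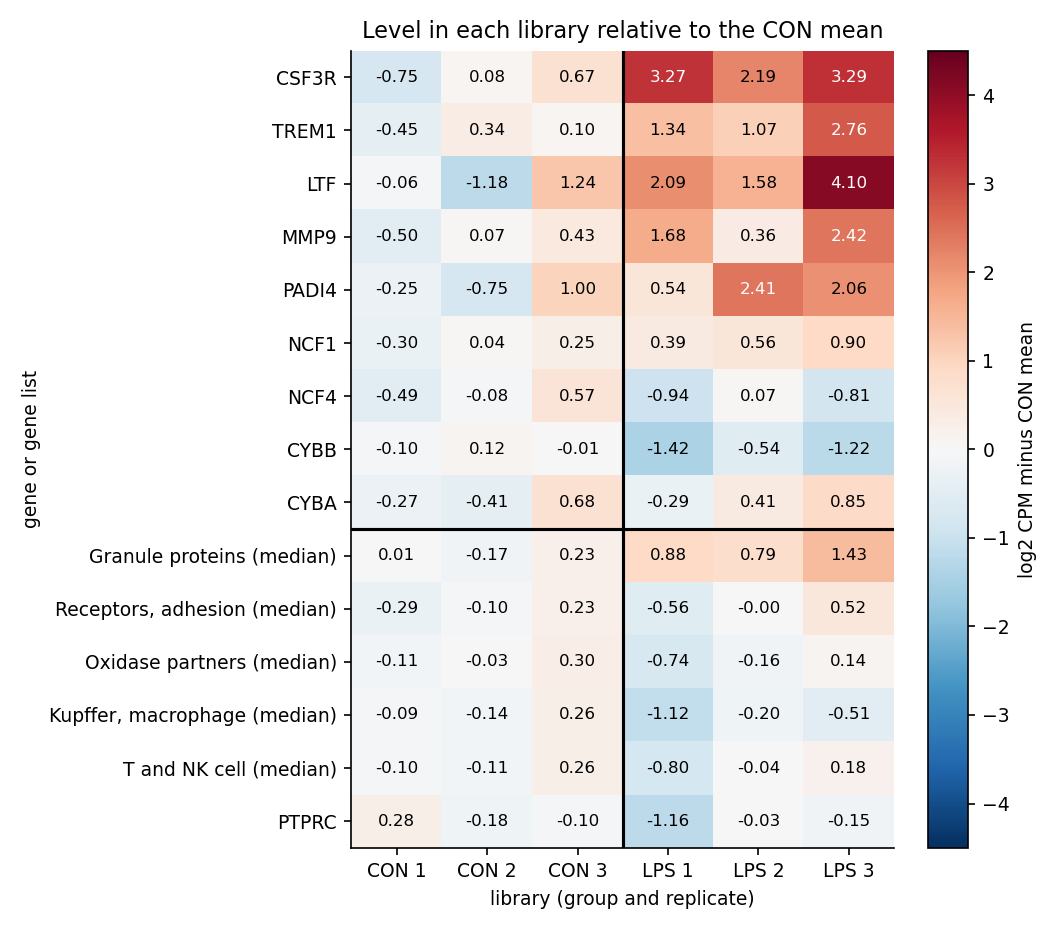
Level in each library minus the mean of the CON libraries (log2 CPM, colour and number) for the 9 genes above the line and, below it, the median of 5 gene lists and PTPRC, with the 3 CON libraries on the left and the 3 LPS libraries on the right. CSF3R is at 3.27, 2.19 and 3.29 in the LPS libraries and CYBB at -1.42, -0.54 and -1.22, while the median of Kupffer cell and macrophage markers is below 0 in each LPS library.

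The genes with the most similar profiles were found among 10736 genes with a symbol and a mean of at least 1 CPM, by the root mean square difference of centred log2 CPM over the 6 libraries. For CSF3R they were YBX3 (0.32), NNMT (0.34) and EBI3 (0.39), against a median of 1.63 over all candidates. NNMT, a methyltransferase of nicotinamide that is abundant in liver, averaged 223 CPM in CON and 1310 CPM in LPS libraries, and EBI3, a subunit of interleukin 27, averaged 5.05 and 31.5 CPM. For CYBB they were PLCG2, NAV2 and ZNF346 (0.09 to 0.11, median 0.71). PLCG2, a phospholipase of immune receptor signalling, averaged 48.4 CPM in CON and 24.1 CPM in LPS libraries.

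Among the scarcer genes, TREM1 was nearest to WNK2, DBNDD2 and ARG1, MMP9 to PLXNA1, TRIP10 and ZNRF1, LTF to TNFRSF11B, KBTBD6 and STX3, and PADI4 to TACC2, SRD5A1 and CD300C. PADI4 had the poorest best match of the 9 (0.45). NCF1 was nearest to IFT172, SH3PXD2B and GABARAPL1, NCF4 to FAM20A, CYP4F3 and EVL, and CYBA to IGHMBP2, DEPP1 and RAP1GAP2. None of the 9 was among the 3 nearest genes of another.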

How the data were processed

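Polyadenylated RNA of piglet liver was made into libraries with a directional kit, per the labels. The authors deposited a table of raw counts per gene for the 6 input libraries, with each gene's exon length. The submitters' processing notes name cutadapt 1.9.3 and HISAT2 and the builds galGal6 and hg38, which are not pig assemblies. The counter and the annotation version were not given in the sources used here. CON replicates 1 and 2 have a pair of sequencing entries each in the labels and 1 column each in the table.

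Counts were scaled with TMM factors (0.735 to 1.11), filtered with filterByExpr (minimum count 10) and fitted with the robust quasi-likelihood test of edgeR 4.0.16 in R 4.3.3 without covariates. P-values were adjusted by Benjamini-Hochberg over all 12774 tested genes. The biological coefficient of variation was 0.397. DESeq2 1.42.0, limma-voom (limma 3.58.1), other scalings and filters, a replicate block, other fold thresholds and leaving out each library were alternatives. The steps were tested on simulated counts. Floors were set at 3 counts, between 0.205 and 0.654 CPM per library. Single values were compared with exact two-sided permutation tests.

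Named genes were the 9 genes, the called genes of each other list and up to 3 per direction with the smallest unadjusted p, the most abundant marker of each list, and the 3 nearest profiles of each gene. In the list of oxidase partners, 1 gene that this rule names is not reported here. The genes and lists were chosen with earlier results of these data known. Sequences of the genes were not used here.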

Additional observations from a re-analysis of the deposited data

How the results depend on the processing

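With edgeR and all 6 libraries 0 of the 9 genes were called higher and 0 lower. With no filter on low counts 4 were called higher, with DESeq2 2, and with the other scalings, limma-voom, the stricter filter and the other fold thresholds 0. Leaving out each library in turn gave 0 to 4 genes called higher and 0 to 1 called lower, and the median log2 fold change ranged from 0.48 (without LPS replicate 3) to 2.14 (without CON replicate 3), beside 1.83 with all libraries. With at least 10 counts in every library that median was 0.44, because TREM1, LTF and PADI4 were no longer tested. Over all genes, the count called was 7 higher and 0 lower with edgeR, 275 and 143 with DESeq2, 536 and 349 with no filter, 512 and 470 without LPS replicate 2, and 39 and 19 without LPS replicate 3. Why LPS replicate 2 has this effect was not tested. Of 130 log2 fold changes of single genes under the alternatives, 117 kept their direction and their side of the threshold, 13 passed it and 0 reversed. The 130 include the other fold thresholds, which reuse the main fit. No gene of the 9 had an adjusted p under 0.05 in that fit, so these values could not differ from it. Of 18 group means, 18 stayed within 1 SD without TMM factors, and without division by length 6 of 18 ranks were the same.

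Correlations of the deviations from the group means were -0.239, 0.2186 and 0.0289 for libraries of the same replicate number, 1 to 3. For unlike numbers they ran from -0.2508 to 0.2199. With 3 libraries per group such values cannot decide whether the numbers mark pairs. The labels name no pairs and the paper used unpaired tests, so the numbers were not taken as pairs. With the number as a replicate block, 1 of the 9 genes was called higher (CSF3R, adjusted p = 0.0205 by edgeR) and 0 lower, in a fit that called 42 genes (0.329%) higher and 9 lower. Depth limits LTF, PADI4 and TREM1, which had 13, 24 and 22 counts over the CON libraries.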
